A study of Mus musculus with 9 samples.

Results

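The genes described here build and tether the sarcomere of heart muscle: the Z-disc, titin and its partners, the M-band, the sarcomeric actins with the proteins at the thin filament ends, the costamere, and stress sensors that sit on these structures. They were chosen by name and role, 33 genes in all, with earlier results of these data known. Setting the 33 against all genes is therefore not blind to the data. All 33 had a probe set of a single gene among the 22180 genes measured. Their RNA was measured in *miR-1-1* null, double-heterozygous and wild-type hearts on 9 Affymetrix Mouse Gene ST 2.0 arrays, 3 for each genotype. The *miR-1-1* null mice lacked both copies of the *miR-1-1* precursor, which a neomycin cassette flanked by loxP sites replaced in the germline, so that every cell of the body carried the change. They kept *miR-1-2*, the other locus of the same mature microRNA. The double heterozygotes carried 1 targeted copy of *miR-1-1* and 1 of *miR-1-2* (miR-1-2 +/-: miR-1-1 +/-), and the wild-type mice carried neither. All mice were on a mixed 129 x C57BL/6 background and whole hearts were taken on postnatal day 2. The values are log2 expression levels after RMA, a method that makes the distributions of signals equal between arrays, so a difference of 1 is a 2-fold change. The labels do not say that each array is a separate mouse, and the tests then rest on the spread between arrays only.

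In a sarcomere, thin filaments of actin are anchored in the Z-disc by α-actinin, thick filaments of myosin are held together at the M-band by myomesins, and titin spans from the Z-disc to the M-band as a molecular spring. The costamere couples the Z-disc to the cell membrane and to desmin filaments, and several Z-disc proteins also carry signals of mechanical stress to the nucleus. *miR-1* is a microRNA of striated muscle that lowers the stability and translation of its target transcripts, and many sarcomere genes are controlled by the transcription factors SRF, which binds the CArG box, and MEF2.

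In whole hearts as measured here, fewer cells of a type and less RNA per cell cannot be told apart. The 7 cardiomyocyte markers moved little between arrays, with a mean deviation from their 9-array mean of 0.0023 to 0.035 in null, -0.044 to 0.0021 in double-heterozygous and -0.026 to 0.015 in wild-type arrays on the log2 scale. The null arrays stood apart at the targeted locus: *Mir133a-2*, which is transcribed together with *miR-1-1*, was at 4.51, 3.79 and 3.07 in null arrays, 6.32, 5.33 and 5.87 in double-heterozygous arrays and 5.63, 6.38 and 5.45 in wild-type arrays. The probe set of the deleted *Mir1a-1* itself was at 0.95 to 1.29 in null, 0.92 to 1.52 in double-heterozygous and 1.29 to 2.21 in wild-type arrays, around the level called near background, 1.80, the upper quartile of olfactory and vomeronasal receptor genes. The female transcript *Xist* was at 7.74 in wild-type replicate 1 and 8.31 in double-heterozygous replicate 7 and at 1.22 to 1.96 in the other 7 arrays, so the null group held no array with *Xist*. Pairs of arrays correlated at 0.982 to 0.988 over all genes. With 3 arrays against 3, an exact permutation test cannot give a p below 0.1.

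Promoter sequence was one feature the choice of genes did not use. RefSeq promoter windows (build GRCm38.p6, 250 bases before to 50 after each start site) were matched for 28 of the 33 genes, with 38 windows in all, and not for *Tcap*, *Myom2*, *Cryab*, *Myot* and *Nexn*. A CArG box, searched on both strands, lay in the windows of 8 of these 28 genes (28.6%) and of 1.81% of all genes with a window. A MEF2 site lay in the windows of 7 genes (25%) and of 3.7% of all genes. The TATA box TATAAA also lay in the windows of 7 genes (25%), and of 15.7% of all genes. A MEF2 site can hold a TATA box. At least 1 of a CArG box and a MEF2 site was found for 14 of the 28 genes (50%) and for 5.42% of all genes. The segments below are shown because they carry such a match in genes that the results turn on or in genes of the same structures whose mutant and wild-type arrays overlapped. They run 5′ to 3′ along the strand of the gene and end no later than the base before the start site, with capitals for the CArG box in *Vcl*, *Ldb3*, *Actc1* and *Acta1* and for the MEF2 site in *Myoz2* and *Ttn*.
Vcl (chr14:20929148-20929220, plus strand): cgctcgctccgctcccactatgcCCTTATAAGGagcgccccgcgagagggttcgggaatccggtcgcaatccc
Ldb3 (chr14:34588682-34588756, minus strand): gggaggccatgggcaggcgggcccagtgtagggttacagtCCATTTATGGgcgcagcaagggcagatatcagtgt
Actc1 (chr2:114052876-114052962, minus strand): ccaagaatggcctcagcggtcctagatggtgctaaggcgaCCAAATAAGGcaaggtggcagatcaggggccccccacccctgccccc
Acta1 (chr8:123894799-123894888, minus strand): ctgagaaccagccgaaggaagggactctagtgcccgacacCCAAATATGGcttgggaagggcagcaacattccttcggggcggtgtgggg
Myoz2 (chr3:123034988-123035060, minus strand): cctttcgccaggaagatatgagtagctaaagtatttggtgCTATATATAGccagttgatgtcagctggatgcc
Ttn (chr2:76982664-76982753, minus strand): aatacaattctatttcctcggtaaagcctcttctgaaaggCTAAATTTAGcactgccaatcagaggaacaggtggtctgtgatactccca
The first base of the match lay 227 bases before the start site in *Vcl*, 35 in *Ldb3*, 47 in *Actc1*, 73 in *Acta1*, 33 in *Myoz2* and 166 in *Ttn*. These are matches of letters and no measurement of binding.

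Most of the 33 genes had lower mean levels in double-heterozygous than in wild-type hearts. Of the 33 genes, 9 were lower at an unadjusted limma p under 0.05 (27.3%) and 0 were higher, while among all genes 6.15% were called lower and 4.45% higher. The 9 genes were *Tcap*, *Myom2*, *Pdlim1*, *Vcl*, *Myoz2*, *Flnc*, *Des*, *Cmya5* and *Tmod1*, at 63.8% to 85.5% of the wild-type level. In 10 genes (30.3%) every double-heterozygous array lay below every wild-type array, against 7.95% of all genes, and in 0 genes above (5.15% of all genes). The median log2 fold change was -0.16 over the 33 genes and -0.024 over all genes, and 27 of the 33 values were below 0, as were 55.3% over all genes and 72.6% over the genes with a mean log2 level of 5 or more. By role, the medians in double-heterozygous hearts were -0.16 over the 13 core Z-disc genes, -0.099 over titin and its 2 partners, -0.040 over the 3 M-band genes, -0.36 over the 4 actins and thin filament end genes, -0.27 over the 4 costamere and intermediate filament genes and -0.10 over the 6 stress and small heat shock genes.

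Well-expressed genes as a whole also had lower values in double-heterozygous arrays. Of the 4670 genes with a mean log2 level of 5 or more, 12.6% were lower at an unadjusted p under 0.05 and their median fold change was -0.088, whereas 9 of the 30 sarcomere genes at that level were lower (30%) with a median of -0.16. Arrays did not overlap in 17.9% of these well-expressed genes and in 10 of the 30 sarcomere genes (33.3%), lower in both cases. When the gene table was normalized again by cyclic loess, the median of the well-expressed genes came to -0.0073, the median of the 33 genes to -0.11, and 6 of the 33 genes were lower against 5.46% of the well-expressed genes.

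In *miR-1-1* null hearts *Myom2* and *Tcap* were the genes past the unadjusted threshold. At an unadjusted limma p under 0.05, 2 of 33 were lower (6.06%) and 0 were higher, while 3.15% of all genes were lower and 2.57% higher. Every null array lay below every wild-type array in 8 genes (24.2%, against 4.63% of all genes) and above in 1, *Nebl* (3.63% of all genes). The median log2 fold change was -0.12 over the 33 genes and -0.0066 over all genes, with 23 of the 33 values below 0, against 51.9% over all genes. The medians by role were -0.057 over the core Z-disc, -0.12 over titin and its partners, -0.12 over the M-band, -0.19 over the actins and thin filament ends, -0.093 over the costamere and -0.16 over the stress genes. Of the well-expressed genes 3.43% were lower and 7.09% lower without overlap, against 2 (6.67%) and 8 (26.7%) of the 30 sarcomere genes at that level. Both comparisons share the 3 wild-type arrays, so their values are given side by side and a common direction is not independent support.

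No gene of the 33 passed a Benjamini-Hochberg adjusted limma p under 0.05 over all genes in any comparison, which 0 of all genes passed in the null comparison (0%), 4 in the double-heterozygous one (0.018%) and 0 between the mutants (0%). The lowest adjusted p of the 33 was 0.868 in null and 0.193 in double-heterozygous hearts. None met the thresholds of the study's array methods either, a fold change above 1.5 or below 0.5 at an unadjusted p under 0.0025, which 28 of all genes met in the null comparison (0.126%), 120 in the double-heterozygous one (0.541%) and 67 between the mutants (0.302%). In a moderated F test over the 3 genotypes, 6 of the 33 had an unadjusted p under 0.05, against 8.53% of all genes, and the lowest adjusted p was 0.384.

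**Figure D1:**
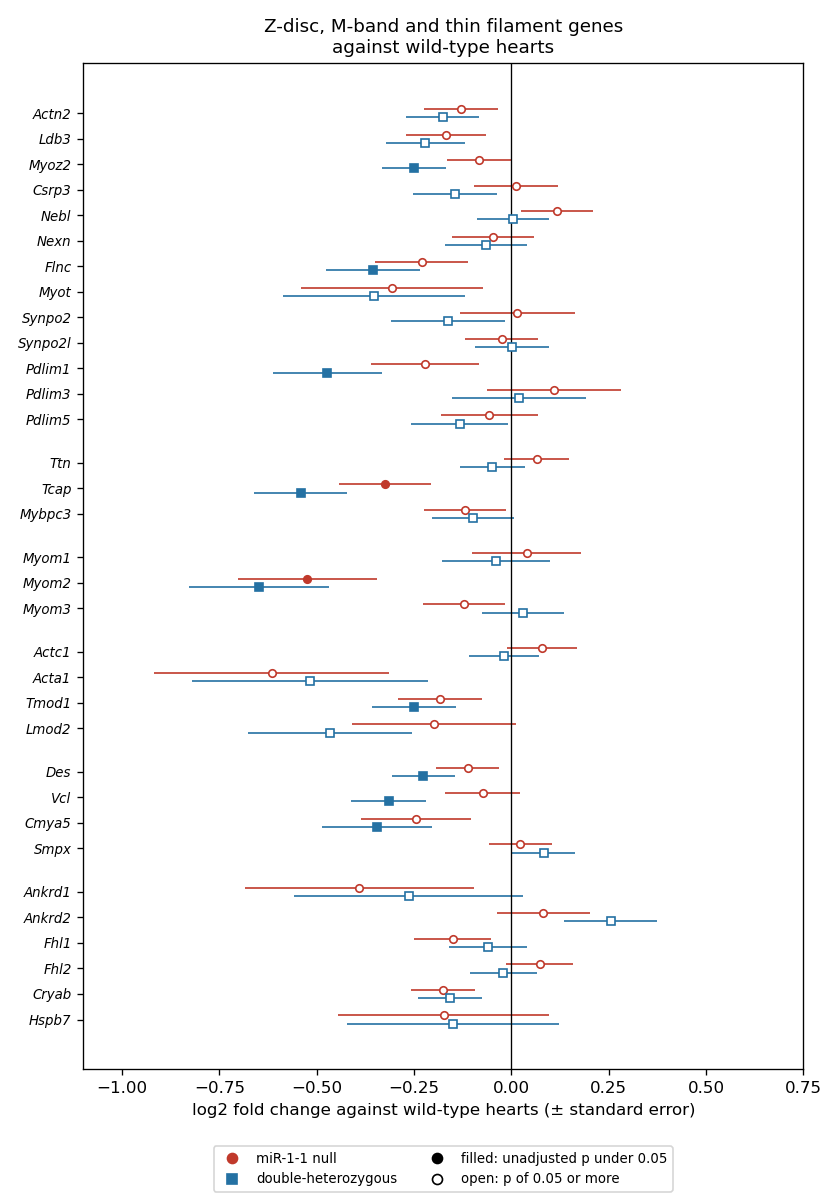
Log2 fold change against wild-type hearts (x axis, bars ± limma standard error) of the 33 genes, grouped by role, in *miR-1-1* null (circles) and double-heterozygous hearts (squares), n = 3 arrays per genotype. Filled symbols mark an unadjusted p under 0.05: 2 genes in null and 9 in double-heterozygous hearts, all to the left of 0.

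Among titin and its partners, telethonin was lower in both mutants at an unadjusted limma p under 0.05 and titin and myosin-binding protein C were not. Telethonin (*Tcap*) caps the titin amino terminus in the Z-disc. *Tcap* was at 6.58, 6.50 and 6.69 in null arrays, 6.31, 6.46 and 6.35 in double-heterozygous arrays and 6.77, 7.15 and 6.83 in wild-type arrays. The 3 genotypes did not overlap, with the double-heterozygous arrays lowest and the wild-type arrays highest. The log2 fold change of *Tcap* against wild-type was -0.32 ± 0.12 in null hearts (SE, 95% interval -0.59 to -0.06, adjusted p = 0.871) and -0.54 ± 0.12 in double-heterozygous hearts (95% interval -0.81 to -0.27, adjusted p = 0.193), a level of 68.7% of wild-type in the second. Without wild-type replicate 2 the value in null hearts was -0.21. Without that array, null replicate 4 or null replicate 5 it no longer passed an unadjusted p of 0.05. *Ttn* itself was at 10.28, 10.26 and 10.24 in null arrays, 10.07, 10.17 and 10.20 in double-heterozygous arrays and 10.21, 10.13 and 10.24 in wild-type arrays, and both mutants overlapped wild-type. Its fold change was 0.06 in null and -0.05 in double-heterozygous hearts, with a 95% interval of -0.24 to 0.14 in the double heterozygotes. *Mybpc3*, cardiac myosin-binding protein C of the thick filament, was at 8.76, 8.72 and 8.74 in null arrays, 8.57, 8.92 and 8.79 in double-heterozygous arrays and 8.95, 8.82 and 8.81 in wild-type arrays. The null arrays of *Mybpc3* lay just below the wild-type arrays, at a fold change of -0.12 ± 0.11 (SE, 95% interval -0.36 to 0.12, adjusted p = 0.93), and the double-heterozygous arrays lay on both sides.

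The M-band showed its largest difference in *Myom2*. *Myom2* encodes myomesin-2 (M-protein), a crosslinker of thick filaments, and *Myom1* the related myomesin-1. *Myom2* was at 7.38, 6.86 and 7.44 in null arrays, 6.86, 7.37 and 7.08 in double-heterozygous arrays and 7.67, 7.89 and 7.70 in wild-type arrays. All 6 mutant arrays lay below the 3 wild-type arrays, and the mutant groups overlapped each other. The log2 fold change of *Myom2* was -0.52 ± 0.18 in null hearts (SE, 95% interval -0.93 to -0.12, adjusted p = 0.868) and -0.65 ± 0.18 in double-heterozygous hearts (95% interval -1.05 to -0.25, adjusted p = 0.285). *Myom2* stood at 69.5% of wild-type in null and 63.8% in double-heterozygous hearts. Without null replicate 5 the value in null hearts was -0.34, and without that array or wild-type replicate 2 it no longer passed an unadjusted p of 0.05. For *Myom1* the fold changes were 0.04 in null and -0.04 in double-heterozygous hearts. *Myom3*, another myomesin, was at 1.65 to 2.10 over the 9 arrays around the near-background level of 1.80, and 5 of its values were the same 1.92.

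Among the 13 core Z-disc genes, 3 were lower in double-heterozygous hearts at an unadjusted limma p under 0.05 and 0 in null hearts. *Pdlim1* encodes a PDZ and LIM domain protein that binds α-actinin and is made in many cell types. It was at 7.77, 7.69 and 7.86 in null arrays, 7.61, 7.27 and 7.70 in double-heterozygous arrays and 8.20, 7.82 and 7.97 in wild-type arrays. The double-heterozygous arrays all lay below the wild-type arrays and 1 null array lay among the wild-type arrays. The fold change of *Pdlim1* was -0.22 ± 0.14 in null hearts (SE, 95% interval -0.54 to 0.09, adjusted p = 0.912) and -0.47 ± 0.14 in double-heterozygous hearts (95% interval -0.79 to -0.16, adjusted p = 0.319).

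Myozenin-2 (*Myoz2*, calsarcin-1) tethers the phosphatase calcineurin to the Z-disc. It was at 9.88, 9.93 and 9.88 in null arrays, 9.78, 9.76 and 9.64 in double-heterozygous arrays and 9.96, 10.02 and 9.95 in wild-type arrays. The 3 genotypes were in separate ranges, and the spread within each was small. Its fold change was -0.08 ± 0.08 in null hearts (SE, 95% interval -0.27 to 0.10, adjusted p = 0.933) and -0.25 ± 0.08 in double-heterozygous hearts (95% interval -0.44 to -0.06, adjusted p = 0.347), a level of 84.1% of wild-type. Filamin C (*Flnc*), an actin crosslinker of the Z-disc rim, was at 6.31, 6.14 and 6.32 in null arrays, 6.05, 6.02 and 6.33 in double-heterozygous arrays and 6.58, 6.57 and 6.32 in wild-type arrays. In both mutants the highest *Flnc* array reached the lowest wild-type array. Its fold change was -0.23 ± 0.12 in null hearts (SE, 95% interval -0.50 to 0.04, adjusted p = 0.911) and -0.36 ± 0.12 in double-heterozygous hearts (95% interval -0.63 to -0.09, adjusted p = 0.352).

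**Figure D2:**
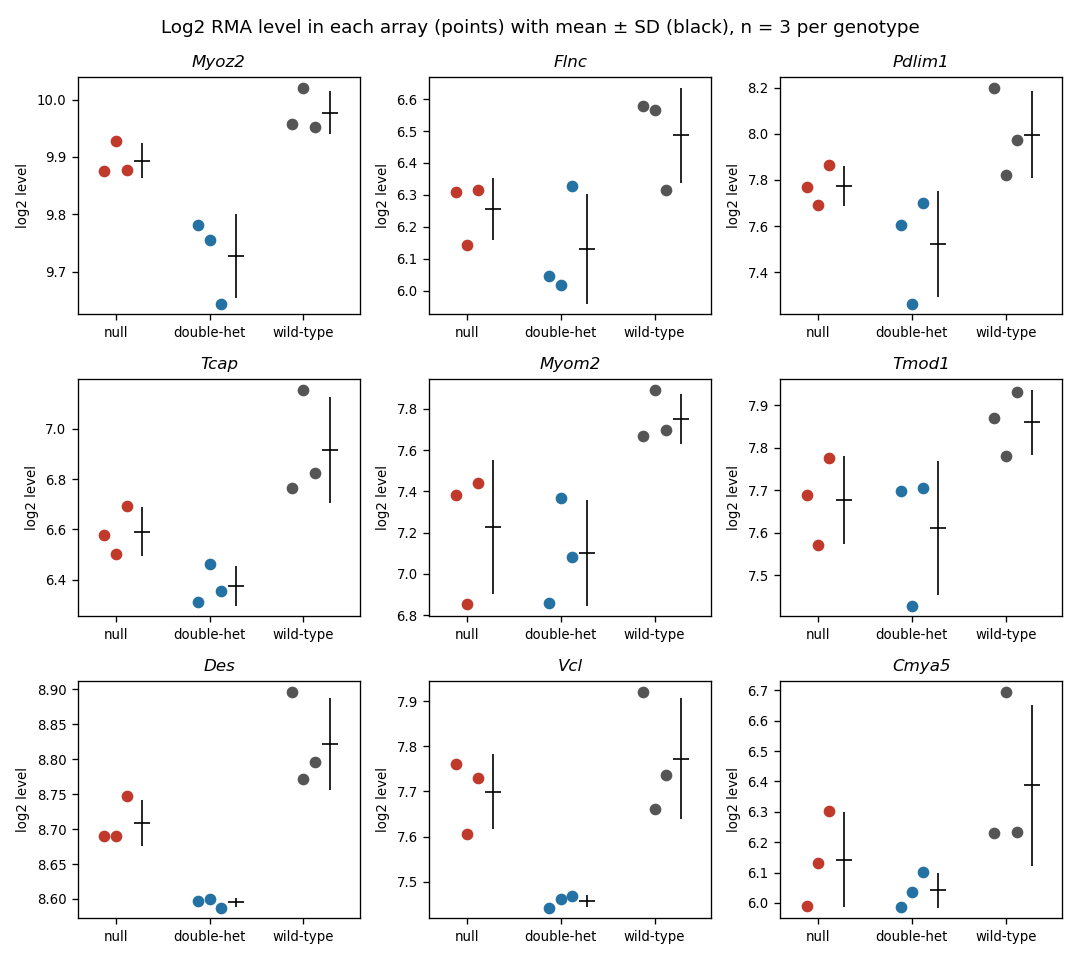
Log2 RMA level (y axis, a separate range in each panel that does not start at 0) of the 9 genes lower in double-heterozygous hearts, by genotype; points are arrays and the black mark is the mean ± SD (n = 3). In 8 of the 9 panels all double-heterozygous points lie below all wild-type points, and in *Flnc* they overlap.

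A pair of Z-disc genes had separated arrays without passing an unadjusted p under 0.05. *Ldb3* encodes cypher (ZASP), which holds α-actinin at the Z-disc. It was at 8.68, 8.44 and 8.70 in null arrays, 8.49, 8.54 and 8.64 in double-heterozygous arrays and 8.70, 8.86 and 8.77 in wild-type arrays, so that both mutants lay below wild-type, by a small gap. The fold change of *Ldb3* was -0.17 ± 0.10 in null hearts (SE, 95% interval -0.40 to 0.06, adjusted p = 0.912) and -0.22 ± 0.10 in double-heterozygous hearts (95% interval -0.45 to 0.01, adjusted p = 0.488). *Nebl*, nebulette, a nebulin relative of the heart Z-disc, was at 7.47, 7.40 and 7.51 in null arrays, 7.26, 7.32 and 7.47 in double-heterozygous arrays and 7.39, 7.26 and 7.39 in wild-type arrays. Only in *Nebl* did the null arrays all lie above wild-type, at a fold change of 0.12 ± 0.09 (SE, 95% interval -0.09 to 0.33, adjusted p = 0.918).

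Of the other 8 core Z-disc genes none differed at an unadjusted p under 0.05. *Actn2*, the α-actinin that crosslinks actin in the cardiac Z-disc, had fold changes of -0.13 in null and -0.18 in double-heterozygous hearts (95% intervals -0.34 to 0.08 and -0.39 to 0.04, adjusted p = 0.912 and 0.539). *Csrp3*, muscle LIM protein, a stress sensor of the Z-disc, was at 0.01 in null and -0.14 in double-heterozygous hearts. The actin-binding nexilin (*Nexn*) was at -0.05 and -0.07 and *Pdlim5* at -0.06 and -0.13 in null and double-heterozygous hearts. *Synpo2*, *Synpo2l* and *Pdlim3* ranged over -0.16 to 0.11. Myotilin (*Myot*) was at -0.31 in null and -0.35 in double-heterozygous hearts, with a standard error of 0.23.

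The sarcomeric actins differed in how far they scattered. *Actc1*, the cardiac α-actin, was at 11.23, 11.19 and 11.16 in null arrays, 11.20, 11.11 and 10.97 in double-heterozygous arrays and 11.17, 11.09 and 11.08 in wild-type arrays, with fold changes of 0.08 and -0.02 in null and double-heterozygous hearts. *Acta1*, the skeletal α-actin that the immature heart also expresses, was at 7.56, 7.76 and 6.82 in null arrays, 7.21, 7.60 and 7.62 in double-heterozygous arrays and 8.61, 7.85 and 7.53 in wild-type arrays. The *Acta1* fold changes of -0.62 ± 0.30 in null and -0.52 ± 0.30 in double-heterozygous hearts (SE) did not pass an unadjusted p of 0.05 (95% intervals -1.30 to 0.07 and -1.20 to 0.16, adjusted p = 0.903 and 0.573). Wild-type replicate 1 was the highest array for *Acta1*, and without it the fold changes were -0.31 in null and -0.21 in double-heterozygous hearts. Null replicate 6 was the lowest array, and without it the fold change in null hearts was -0.34. Tropomodulin-1 (*Tmod1*), which caps the pointed end of the thin filament, was at 7.69, 7.57 and 7.78 in null arrays, 7.70, 7.43 and 7.71 in double-heterozygous arrays and 7.87, 7.78 and 7.93 in wild-type arrays. Both mutants lay below wild-type in *Tmod1*, in the null hearts by a narrow gap. Its fold change was -0.18 ± 0.11 in null hearts (SE, 95% interval -0.43 to 0.06, adjusted p = 0.912) and -0.25 ± 0.11 in double-heterozygous hearts (95% interval -0.49 to -0.01, adjusted p = 0.458). Without double-heterozygous replicate 8 the second value was -0.16. It no longer passed an unadjusted p of 0.05 without that array, wild-type replicate 1, wild-type replicate 3 or null replicate 4. Leiomodin-2 (*Lmod2*), which elongates thin filaments at the same end, was at -0.20 in null and -0.47 in double-heterozygous hearts (95% intervals -0.67 to 0.28 and -0.94 to 0.01, adjusted p = 0.938 and 0.48), and double-heterozygous replicate 9 was the lowest array at 7.53.

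The costamere and intermediate filament genes held 3 of the 9 lower genes of the double heterozygotes. Desmin (*Des*), the muscle intermediate filament that links Z-discs to each other and to the membrane, was at 8.69, 8.69 and 8.75 in null arrays, 8.60, 8.60 and 8.59 in double-heterozygous arrays and 8.90, 8.77 and 8.80 in wild-type arrays. The genotypes were separate in *Des*, and the double-heterozygous arrays had an SD of 0.0066. Its fold change was -0.11 ± 0.08 in null hearts (SE, 95% interval -0.29 to 0.07, adjusted p = 0.912) and -0.23 ± 0.08 in double-heterozygous hearts (95% interval -0.41 to -0.04, adjusted p = 0.376).

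Vinculin (*Vcl*), which joins actin to integrins and cadherins in many cell types, was at 7.76, 7.61 and 7.73 in null arrays, 7.44, 7.46 and 7.47 in double-heterozygous arrays and 7.92, 7.66 and 7.74 in wild-type arrays. The null and wild-type arrays of *Vcl* overlapped, and the double-heterozygous arrays lay below both. The fold change of *Vcl* was -0.07 ± 0.10 in null hearts (SE, 95% interval -0.29 to 0.14, adjusted p = 0.95) and -0.32 ± 0.10 in double-heterozygous hearts (95% interval -0.53 to -0.10, adjusted p = 0.332), a level of 80.4% of wild-type. Of the 9 lower genes, 7 had a promoter window and *Tcap* and *Myom2* had none. Among the 8 windows of those 7 genes, a CArG box was found in 1, of *Vcl*, and a MEF2 site in 1, of *Myoz2*. Among the 30 windows of the other genes, a CArG box was found in 9 and a MEF2 site in 7.

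Myospryn (*Cmya5*), a costameric protein that binds desmin and dysbindin, was at 5.99, 6.13 and 6.30 in null arrays, 5.99, 6.04 and 6.10 in double-heterozygous arrays and 6.23, 6.69 and 6.24 in wild-type arrays. Wild-type replicate 2 stood above the rest, and the double-heterozygous arrays lay below all wild-type arrays. Its fold change was -0.24 ± 0.14 in null hearts (SE, 95% interval -0.56 to 0.07, adjusted p = 0.912) and -0.34 ± 0.14 in double-heterozygous hearts (95% interval -0.66 to -0.03, adjusted p = 0.433). Without wild-type replicate 2 the fold changes of *Cmya5* were -0.091 in null and -0.19 in double-heterozygous hearts. The second no longer passed an unadjusted p of 0.05 without that array or without any 1 double-heterozygous array. A pair of further probe sets listed for *Cmya5* together with another gene gave -0.23 and -0.22 in null and -0.60 and -0.52 in double-heterozygous hearts. *Smpx*, a small muscle protein of the costamere, was at 0.02 in null and 0.08 in double-heterozygous hearts.

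The stress signalling and small heat shock genes held 0 of the calls. αB-crystallin (*Cryab*), a chaperone of desmin and titin, was at 10.90, 10.89 and 10.79 in null arrays, 10.94, 10.83 and 10.86 in double-heterozygous arrays and 11.08, 11.03 and 11.01 in wild-type arrays. In this probe set all 6 mutant arrays of *Cryab* lay below wild-type, at fold changes of -0.18 ± 0.08 in null and -0.16 ± 0.08 in double-heterozygous hearts (SE), neither past an unadjusted p of 0.05 with the settings used here (95% intervals -0.36 to 0.01 and -0.34 to 0.03, adjusted p = 0.903 and 0.534). A further probe set of *Cryab* alone gave -0.12 in null and -0.18 in double-heterozygous hearts. There null replicate 5 (10.32) lay above wild-type replicate 3 (10.28), so null and wild-type arrays overlapped. A probe set listed for *Cryab* together with *Hspb2* gave -0.02 in null and -0.11 in double-heterozygous hearts. *Ankrd1*, a titin-binding repressor of transcription induced by stretch, spread widely within each genotype, over 8.71 to 9.29 in null, 8.55 to 9.62 in double-heterozygous and 8.89 to 9.71 in wild-type arrays. *Hspb7*, a small heat shock protein of heart muscle, was at 9.50 in wild-type replicate 1 and at 8.21 to 8.79 in the other arrays. The LIM protein genes *Fhl1* and *Fhl2* were at -0.15 and 0.07 in null and -0.06 and -0.02 in double-heterozygous hearts, and *Ankrd2*, a relative of *Ankrd1*, was near background.

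Between the mutants the design allows a direct comparison, which does not use the wild-type level. Of the 33 genes, 1 was lower in double-heterozygous than in null hearts at an unadjusted limma p under 0.05, *Vcl*, and 0 were higher, while 3.79% of all genes were lower and 3.59% higher. *Vcl* differed by -0.24 ± 0.10 (SE, 95% interval -0.46 to -0.03, adjusted p = 0.639). In 6 genes, *Tcap*, *Ttn*, *Actn2*, *Myoz2*, *Des* and *Vcl*, every double-heterozygous array lay below every null array (18.2%, against 5.75% of all genes), and in 0 above (4.3% of all genes). Of the well-expressed genes 6.77% were lower at an unadjusted p under 0.05 and 12% lower without overlap, against 1 (3.33%) and 6 (20%) of the 30 sarcomere genes at that level. The median difference was -0.079 over the 33 genes, -0.018 over all genes and -0.073 over the well-expressed genes. The calls of *Pdlim1*, *Myoz2*, *Flnc*, *Des*, *Cmya5* and *Tmod1* in double-heterozygous hearts alone were not shown to differ between the mutants. For *Tcap* and *Myom2* the differences were -0.22 (95% interval -0.48 to 0.05) and -0.12 (-0.53 to 0.28).

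By array, 1 wild-type array stood apart from the other two. The median deviation of the 33 genes from their own 9-array means was 0.0089, -0.018 and 0.016 in null arrays, -0.079, -0.056 and -0.057 in double-heterozygous arrays and 0.14, 0.030 and 0.034 in wild-type arrays. The double-heterozygous arrays were alike, and the wild-type value was highest in replicate 1. Wild-type replicate 1 was the highest of the 9 arrays for 12 genes and the lowest for 0, and double-heterozygous replicates 7 and 9 were the lowest for 9 genes each. Wild-type replicate 1 and double-heterozygous replicate 7 are the arrays with *Xist*. Without both, 5 of the 33 genes were lower in double-heterozygous hearts at an unadjusted limma p under 0.05, *Myoz2*, *Pdlim1*, *Tcap*, *Myom2* and *Lmod2*, against 4.63% of all genes and 6.42% of the well-expressed genes, and the median was -0.10 (-0.061 over the well-expressed genes). In null hearts the median came to -0.074 (0.0059 over the well-expressed genes). There *Tcap* and *Myom2* were lower, against 3.42% of all genes and 2.51% of the well-expressed genes. The part of sex in these values was not tested beyond this and a covariate for the Y-linked gene *Eif2s3y*. With that covariate 8 of the 33 genes were lower in double-heterozygous hearts, against 6.13% of all genes and 12% of the well-expressed genes.

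**Figure D3:**
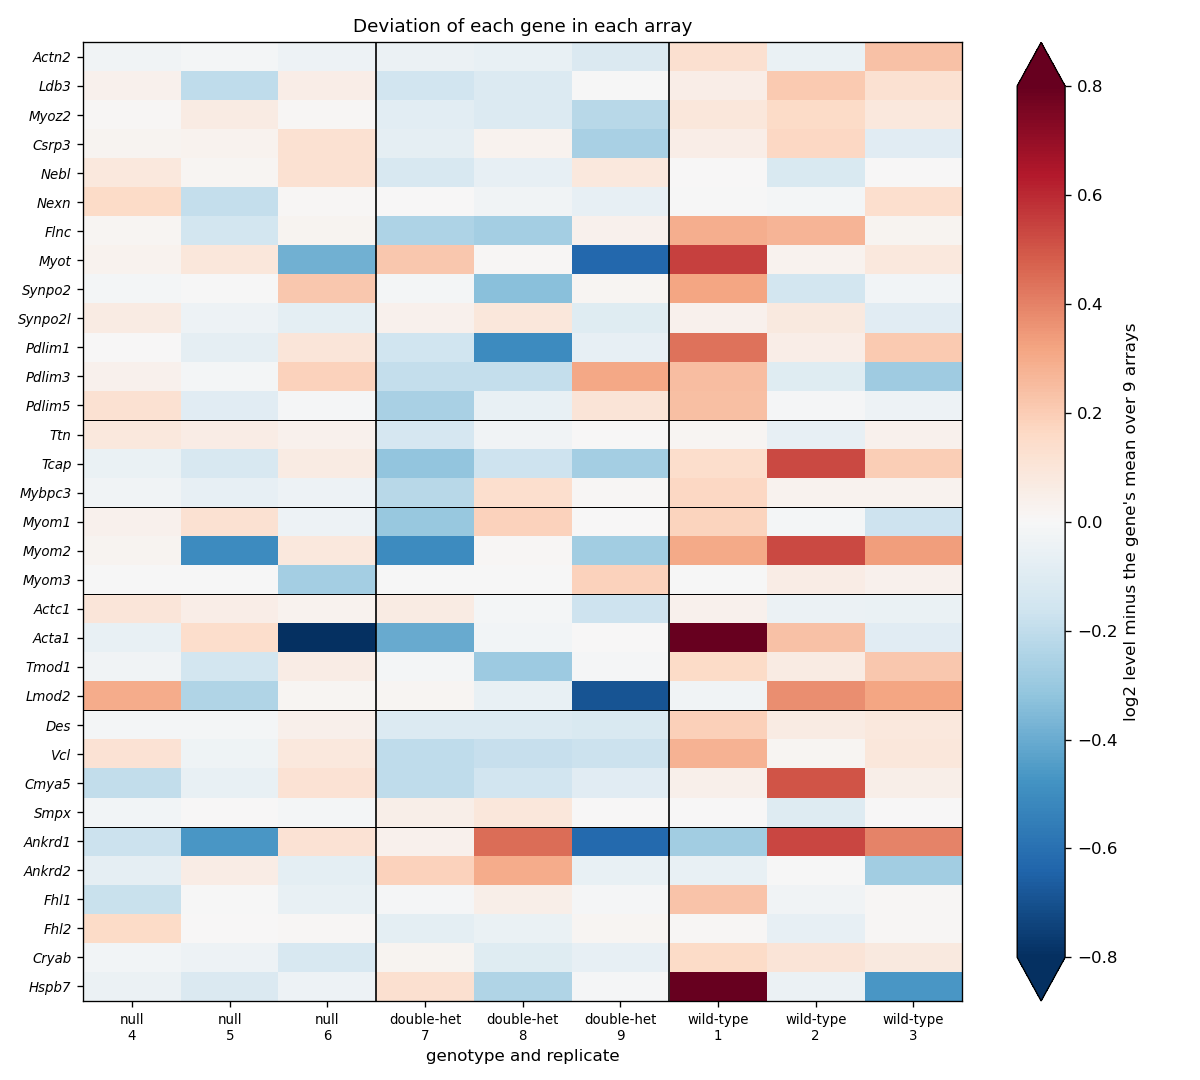
Deviation of each of the 33 genes (rows, grouped by role) from its own mean over the 9 arrays (colour, log2 scale, clipped at the ends of the scale) in each array (columns: null 4 to 6, double-heterozygous 7 to 9, wild-type 1 to 3). *Tcap*, *Myom2* and *Des* are raised in every wild-type array, whereas *Hspb7* is highest in wild-type replicate 1 and lowest in wild-type replicate 3.

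**Figure D4:**
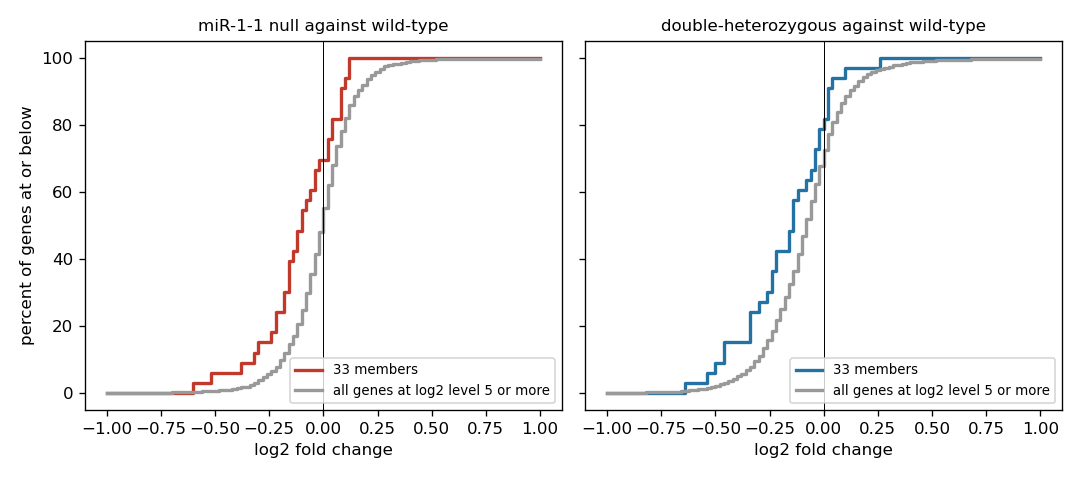
Percent of genes (y axis) at or below each log2 fold change against wild-type (x axis) for the 33 genes (coloured) and for all genes with a mean log2 level of 5 or more (grey), in *miR-1-1* null (left) and double-heterozygous hearts (right). In both panels the coloured line lies to the left of the grey line over most of its length, and in the double heterozygotes the grey line is itself shifted, with a median of -0.088.

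Related genes outside the 33 gave the surroundings. Of 26 measured further Z-disc and titin-linked genes (29 listed), 5 were lower and 2 higher in null hearts and 7 lower and 1 higher in double-heterozygous hearts at an unadjusted limma p under 0.05, with median fold changes of -0.04 and -0.12. For these and the next 3 lists the shares over all genes are 3.15% lower and 2.57% higher in null hearts and 6.15% lower and 4.45% higher in double-heterozygous hearts, where 12.6% of the well-expressed genes were lower. The nebulin-related anchor *Nrap* was at 7.34, 7.04 and 7.34 in null arrays, 6.96, 7.22 and 7.11 in double-heterozygous arrays and 7.78, 7.77 and 7.67 in wild-type arrays, all mutant arrays below wild-type (-0.50 and -0.64 in null and double-heterozygous hearts). *Xirp2*, a Xin repeat protein that binds actin, was at -1.30 in null and -1.28 in double-heterozygous hearts and met the thresholds of the array methods in both. *Hspb8*, a chaperone partner of *Bag3*, was at -0.45 and -0.44, and *Cavin4*, a muscle caveolar protein, at -0.10 and -0.50 in null and double-heterozygous hearts.

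Of 11 measured M-band and titin kinase genes (12 listed), 1 was lower and 1 higher in null hearts, and 1 lower and 0 higher in double-heterozygous hearts. The ubiquitin ligase *Trim54* was at -0.90 and -0.61 in null and double-heterozygous hearts, and its relative *Trim55* at 0.41 in null hearts and 0.30 in double-heterozygous hearts, where it did not pass. Of 21 further actin and thin filament genes, all measured, 0 were lower and 1 higher in null hearts and 3 lower and 1 higher in double-heterozygous hearts. The higher gene was the smooth muscle actin *Acta2*, at 9.59, 9.87 and 9.51 in null arrays, 9.44, 9.49 and 9.88 in double-heterozygous arrays and 9.24, 9.02 and 8.36 in wild-type arrays. The lower genes were the cytoplasmic actin *Actb* (-0.39), *Tmod3* (-0.30), a tropomodulin of many cell types, and *Wdr1* (-0.25), which promotes actin disassembly. Of 22 measured costamere and dystrophin complex genes (25 listed), 1 was lower and 1 higher in null hearts and 2 lower and 1 higher in double-heterozygous hearts. The laminin receptor subunit *Itga7* was at -0.40 and -0.48 and melusin (*Itgb1bp2*) at 0.40 and 0.51 in null and double-heterozygous hearts, and the sarcoglycan *Sgca* was at -0.31 in double-heterozygous hearts.

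Markers of other cells moved with some groups. The mean of the 6 smooth muscle markers deviated by 0.063 to 0.23 in null, 0.025 to 0.19 in double-heterozygous and -0.46 to 0.096 in wild-type arrays. Of the 6, 0 were near background and 2 were higher in each mutant, *Cnn1* and *Acta2*. *Cnn1* was at 1.41 in null and 1.52 in double-heterozygous hearts and met the thresholds of the array methods in both. *Acta2* was at 0.78 and 0.73, while *Mylk* was lower in double-heterozygous hearts (-0.27, and -0.12 in null hearts). The mean of the 5 macrophage markers deviated by -0.065 to 0.023 in null, -0.24 to -0.12 in double-heterozygous and 0.060 to 0.45 in wild-type arrays. Of the 5, 1 was lower in null and 3 were lower in double-heterozygous hearts. The 6 fibroblast markers deviated by 0.0074 to 0.023, -0.28 to -0.024 and 0.041 to 0.20 in null, double-heterozygous and wild-type arrays, with 3 of 6 lower in double-heterozygous hearts, and the 5 endothelial markers by -0.090 to 0.11, -0.17 to -0.026 and 0.022 to 0.17, with 1 of 5 lower in each mutant. None of the macrophage, fibroblast and endothelial markers was near background. Such cells also express *Vcl*, *Pdlim1* and the cytoplasmic actins, and the part of cell makeup in the results for these genes was not tested.

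The 14 fast skeletal muscle markers, looked at because *Myom2*, *Tcap* and *Acta1* are abundant in skeletal muscle, deviated by -0.045 to 0.14 in null, -0.058 to 0.026 in double-heterozygous and -0.062 to 0.051 in wild-type arrays, with 2 of 14 near background, 1 lower and 1 higher in null and 1 higher in double-heterozygous hearts. The lower marker was *Myh8*, at -0.56 in null and 0.05 in double-heterozygous hearts. The higher one was *Myod1* in both mutants, at 0.50 in null and 0.30 in double-heterozygous hearts. The 5 brown fat markers deviated most in wild-type replicate 1, at 0.46, against -0.29 to 0.19 in the other arrays, and 2 of 5 were near background. The 4 atrial markers deviated by -0.038 to 0.10 in null, -0.039 to 0.11 in double-heterozygous and -0.25 to 0.0087 in wild-type arrays, with the lowest value in wild-type replicate 1. Of these 4, 1 was higher in each mutant, *Myl7*, at 0.22 in both. Of the 4 measured thymus and T cell markers 3 were near background, and the 1 measured red cell marker deviated by -0.13 to 0.18 over all arrays.

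**Figure D5:**
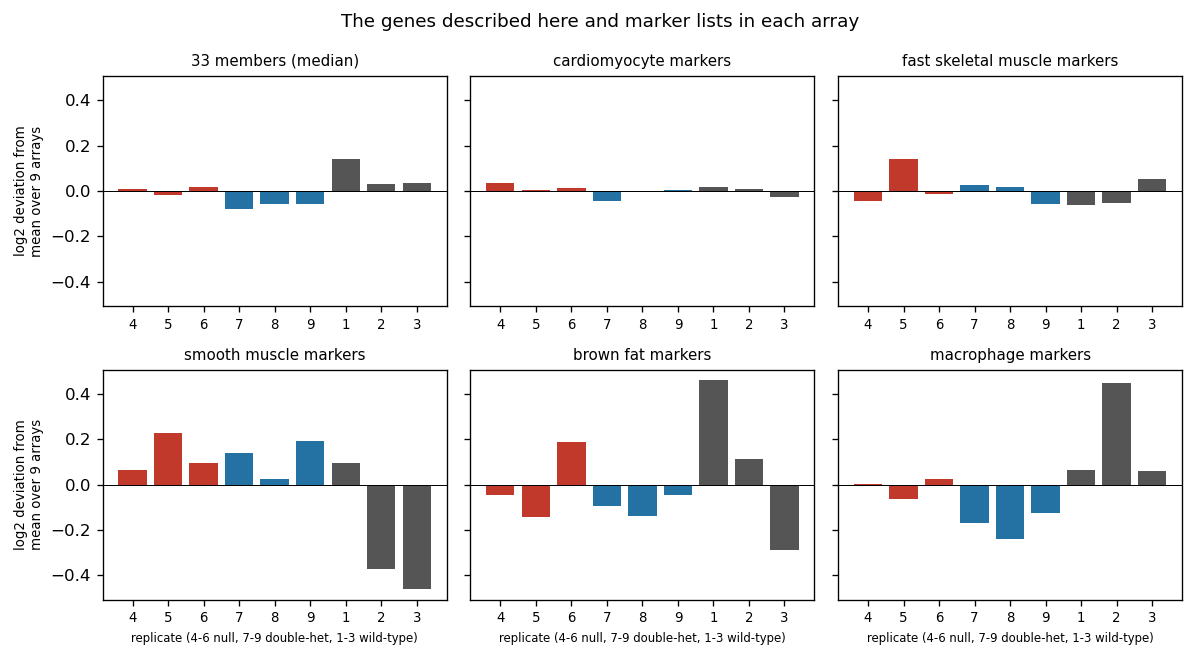
Median deviation of the 33 genes and mean deviation of 5 marker lists from the 9-array means (y axis, log2 scale) in each array (bars: null red, double-heterozygous blue, wild-type grey, labelled by replicate). The cardiomyocyte markers stay within 0.044 of 0, the 33 genes are lowest in the double-heterozygous arrays, and the macrophage markers are below 0 in all 3 of them.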

How the data were processed

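Whole hearts of *miR-1-1* null, double-heterozygous and wild-type mice at postnatal day 2 were profiled on Affymetrix Mouse Gene ST 2.0 arrays (n = 3 each). The authors extracted RNA with TRIzol, removed genomic DNA, amplified the RNA and normalized all arrays by RMA. The deposited values are log2 expression levels per probe set. RMA was run with Affymetrix Power Tools 1.12.0, by the submitters' processing notes. The values were used unchanged, and dim genes were kept. No source used here gives the genome build of the probe sets.

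Of 41345 probe sets, 23521 were listed for 1 gene symbol (23328 matched by gene ID to the mouse gene table of assembly GRCm38.p6), 1820 for several and 16004 had no symbol here. The one-symbol probe set with the highest mean was kept, which left 22180 genes. A mean log2 level at or below the upper quartile of olfactory and vomeronasal receptor genes, 1.80, was called near background; 1 of the 33 genes, *Ankrd2*, was. No pair of arrays held more than 8.94% equal values, so none was treated as a repeat. The number of arrays limits the precision.

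One limma fit (limma 3.58.1, R 4.3.3, lmFit and eBayes) with a mean per genotype covered all 9 arrays and 3 contrasts, with Benjamini-Hochberg adjustment over all genes. The script was tested on simulated data. Python 3.11.15 and matplotlib 3.10.9 made the figures. Values in every array are given for 13 genes: those with an unadjusted p under 0.05 in any contrast or with no overlap between a mutant and wild-type. *Ttn*, *Actc1*, *Acta1*, *Xist* and the genes of the targeted locus are outside this rule. *Ankrd1*, *Hspb7*, *Lmod2* and *Myom3* are given by ranges or single arrays. The markers *Cnn1*, *Mylk*, *Myl7*, *Myh8* and *Myod1* are given by their fold changes. All these genes were chosen after their values were seen. The related genes *Nrap* and *Acta2*, also given in every array, are outside the rule too. Of each list of related genes, up to 4 with the smallest p are named. The 33 genes and all lists were chosen with earlier results of these data known. Alternatives were the arrays in the fit, moderation with a trend and robust, the methods' t-test, a filter on dim genes, quantile, median and cyclic loess normalization, other uses of probe sets, array weights, *Eif2s3y* as a covariate, leaving out the arrays with *Xist*, a 1.5-fold threshold in both directions and leaving out each array. Protein sequences were not used here.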

Additional observations from a re-analysis of the deposited data

Results flagged for a closer look

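*Vcl* drew attention because its double-heterozygous and null arrays differed in the direct comparison of the mutants at an unadjusted limma p under 0.05. It was 1 of the 33 genes called lower there (3.03%), against 3.79% of all genes and 6.77% of the well-expressed genes. The log2 difference was -0.24 ± 0.10 (double-heterozygous minus null, SE, 95% interval -0.46 to -0.03, adjusted p = 0.639 over all genes), with 3 of 3 double-heterozygous arrays below all null arrays. Over the 21 alternatives it ranged from -0.29 to -0.18 and had an unadjusted p under 0.05 in 14, with adjusted p of 0.558 to 0.854.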

How the results depend on the processing

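No paired analysis was possible because the replicate numbers run from 1 to 9 over the arrays and no genotype shares a number with another. In the 21 alternatives, *Tcap*, *Myom2* and *Myoz2* kept an unadjusted p under 0.05 in double-heterozygous hearts in 21 (20 with limma and 1 with the methods' t-test), *Pdlim1* and *Vcl* in 20, *Des* in 17, *Flnc* in 16, *Cmya5* in 12 and *Tmod1* in 11. In null hearts *Myom2* kept it in 18 and *Tcap* in 17. Calls as lower were gained by *Cryab* in null hearts in 4 (quantile, cyclic loess, trend and robust moderation, the methods' t-test) and in double-heterozygous hearts in 2. *Lmod2* gained them in 6, *Ldb3* in 5 and *Actn2* in 2 in double-heterozygous hearts, and *Acta1* in 2 in null hearts and 1 in double-heterozygous hearts. *Myoz2*, *Actn2* and *Flnc* gained 1 each in null hearts. *Ankrd2*, near background, was called higher in 2 in double-heterozygous hearts. Its values there were 0.31 without wild-type replicate 2 and 0.35 without double-heterozygous replicate 9. No gene of the 33 reached an adjusted p under 0.05 or the thresholds of the array methods in any alternative run, the 1.5-fold threshold in both directions included.

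The count of lower genes was 1 to 4 in null hearts (2 with all arrays) and 7 to 10 in double-heterozygous hearts (9 with all arrays) when 1 array was left out, and 5 in double-heterozygous hearts without both arrays with *Xist*. It was 1 in null hearts without wild-type replicate 2, null replicate 4 or null replicate 5, and 4 without wild-type replicate 3. With 1 array left out, 2.39% to 3.6% of all genes were lower in null hearts and 4.85% to 5.97% in double-heterozygous hearts. Of the well-expressed genes, 1.82% to 3.96% were lower in null hearts and 8.18% to 11.9% in double-heterozygous hearts. Between the mutants the count of lower genes was 0 to 2 with 1 array left out, 0 without null replicate 4 or 6 or any 1 double-heterozygous array, 2 with trend and robust moderation, 4 with the methods' t-test and 0 with quantile or cyclic loess normalization. Of all genes, 3.08% to 4.05% were lower between the mutants with 1 array left out. That share was 4.07% with trend and robust moderation and 2.58% with the methods' t-test. Of the well-expressed genes, 3.47% to 7.45% were lower with 1 array left out, and 9.21% and 5.97% in those settings. Higher genes numbered 0 to 1 with 1 array left out in double-heterozygous hearts (3.95% to 4.43% of all genes). Between the mutants they numbered 0 to 1 (2.75% to 3.68% of all genes).

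The median of the 33 genes was -0.074 in null hearts without the arrays with *Xist* (-0.13 to -0.074 with 1 array left out, the highest without wild-type replicate 1). In double-heterozygous hearts it was -0.11 with quantile and -0.11 with cyclic loess normalization and -0.10 without the arrays with *Xist* (-0.19 to -0.14 with 1 array left out). Between the mutants it was -0.028 with cyclic loess. Among all genes, 58% of the calls at an unadjusted p under 0.05 in double-heterozygous hearts were lower, 45.8% with cyclic loess and 77.2% among genes at or above the median level. The cause of these shifts was not tested.

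Values near 0 changed sign: *Vcl* in null hearts (0.00029 without the arrays with *Xist* or without wild-type replicate 1), *Nebl* in double-heterozygous hearts (-0.014 with median centring, -0.056 to 0.050 with 1 array left out), *Mybpc3* in double-heterozygous hearts (0.042 without the arrays with *Xist*), and between the mutants *Ldb3* (0.0027 with cyclic loess), *Mybpc3* (-0.059 to 0.12 with 1 array left out), *Tmod1* (-0.12 to 0.024) and *Cryab* (-0.015 to 0.043, -0.020 with the mean and -0.059 with the lowest probe set, -0.0078 with the *Eif2s3y* covariate, -0.015 without the arrays with *Xist*).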
